A study of Mus musculus with 5 samples.

Results

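Urothelial cells line the renal pelvis and make up a very small fraction of a dissociated kidney. In these data they were chosen by their uroplakin transcripts, from the raw UMIs (unique molecular identifiers, each counting 1 captured transcript) of single-cell 3′ libraries. A barcode was kept when at most 30% of its UMIs were mitochondrial and at least 200 genes were detected. A kept barcode was called urothelial when at least 2 of the 4 genes Upk1a, Upk1b, Upk2 and Upk3a had a UMI, when the 4 summed to at least 3 UMIs, and when Ptprc, the pan-leukocyte gene, had none. This rule selected 86 of 60043 kept barcodes (0.143%).

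The study examined kidneys of wild-type C57BL/6 males, 8 to 10 weeks of age, given aristolochic acid I (AAI), a nephrotoxic plant compound, by intraperitoneal injection of 3 mg/kg every 3 days. Control 1 is the library of the baseline (week 0); by the study's methods, control mice were injected with vehicle in place of AAI. AKI 1 and AKI 2 were taken at the end of 2 weeks of injections, the acute kidney injury phase, and CKD 1 and CKD 2 at week 4, after 2 further weeks without AAI, the chronic kidney disease phase. Whole kidneys were digested with collagenase IV and DNase I, so no library was enriched for the pelvis.

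The urothelium is a layered epithelium of basal, intermediate and umbrella cells that keeps urine from the tissue below. Uroplakins are membrane proteins that assemble into rigid plaques: Upk1a and Upk1b are tetraspanins, each of which pairs with a single-span partner, Upk2 or Upk3a, and the plaques cover the umbrella cell surface. Basal cells carry Krt5 and the transcription factor Trp63, whereas Krt20 marks mature umbrella cells. AAI is taken up chiefly by the proximal tubule and, once its nitro group is reduced, forms DNA adducts, and it is a known carcinogen of the human upper urinary tract lining.

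The members were unevenly spread over the libraries. Control 1 held 37 of 9168 kept barcodes, AKI 1 held 13 of 11203, AKI 2 held 7 of 10852, CKD 1 held 19 of 19314 and CKD 2 held 10 of 9506. Median depth was 18475 UMIs per member in control 1, 28167 and 18472 in AKI 1 and AKI 2, and 4078 and 28248.5 in CKD 1 and CKD 2, so CKD 1 stood apart as shallow. Summed over its members, a library gave between 113065 UMIs (AKI 2) and 658865 UMIs (control 1). Below, a level is the number of UMIs of a gene per 10000 UMIs of the summed cells. Poisson intervals and exact binomial intervals cover counting error only.

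All 4 uroplakins were detected in 64 members, 3 of them in 11 members and 2 of them in 11 members. The uroplakin sum was 3 at the lowest, 71.5 at the median and 1358 at the highest. Only 3 members sat at the threshold sum of 3, and 7 barcodes with a sum of 2 lay just outside it. A further 19 barcodes with 3 or more uroplakin UMIs were left out because a single uroplakin gave them all. Another 23 were left out because they carried Ptprc, and this loss was uneven. Control 1 lost 1 such barcode beside its 37 members, while AKI 1 lost 7 beside 13. AKI 2 lost 5 beside 7, CKD 1 lost 9 beside 19, and CKD 2 lost 1 beside 10. In 9 members another lineage list had at least as many UMIs as the uroplakins, and the highest count of collecting duct genes in 1 member was 193 UMIs, in control 1. Only 1 barcode of a member was found in another library, a CKD 2 member shared with a CKD 1 barcode that was not a member. Doublets were not removed.

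As a share of all kept barcodes, urothelial cells made up 0.404% of control 1 (exact 95% interval 0.284% to 0.556%). The share was 0.116% (0.0618% to 0.198%) in AKI 1, 0.0645% (0.0259% to 0.133%) in AKI 2, 0.0984% (0.0592% to 0.154%) in CKD 1 and 0.105% (0.0505% to 0.193%) in CKD 2. The single control library lay above every injured library, 3.48 times the highest of them. However, the mitochondrial limit had removed 38.7% of the barcodes of control 1, against 11.1% to 12.7% in the injured libraries. With the limit lowered to 15%, the share was 0.539% in control 1 and 0.116% in AKI 1. The parts of this limit and of the uneven Ptprc loss in the higher control share were not tested. AKI averaged 0.0903% ± 0.0364 (SD, n = 2) and CKD 0.102% ± 0.00482 (SD, n = 2), a difference smaller than the spread between libraries (exact two-sided permutation p = 1, where the smallest p that 2 against 2 allows is 0.333). Of barcodes without Ptprc, however, urothelial cells were 0.589% of control 1, 0.420% and 0.259% of the AKI libraries 1 and 2, and 0.213% and 0.680% of the CKD libraries 1 and 2. On that denominator control 1 no longer lay above every injured library. Barcodes without Ptprc numbered 6277 of 9168 in control 1, 3097 of 11203 in AKI 1, 2701 of 10852 in AKI 2, 8938 of 19314 in CKD 1 and 1470 of 9506 in CKD 2.

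**Figure D1:**
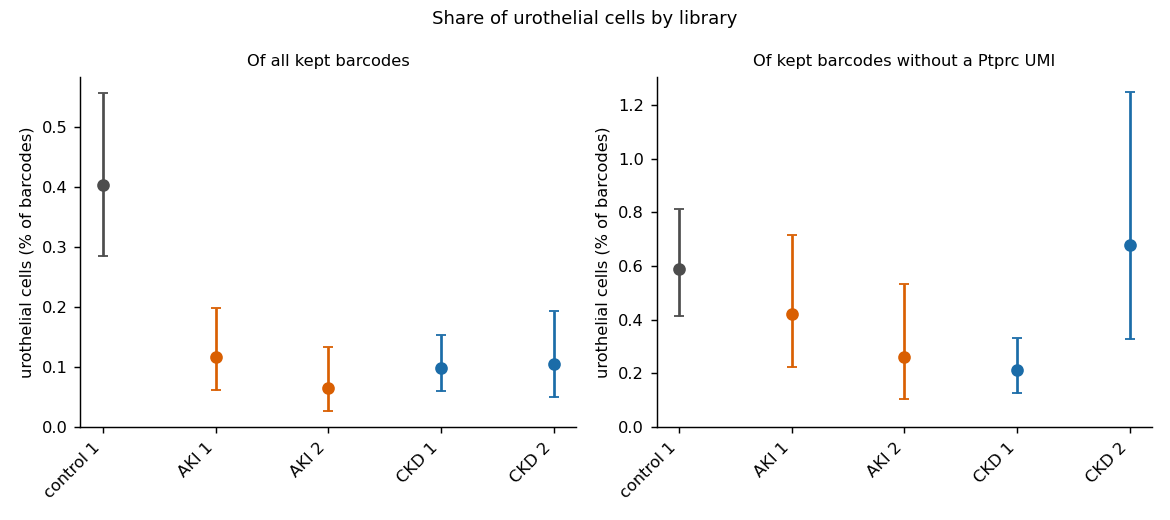
Urothelial cells as a percentage of all kept barcodes (left) and of kept barcodes without a Ptprc UMI (right), by library, with exact 95% binomial intervals. Control 1 is highest on the left at 0.404%, whereas on the right CKD 2 (0.680%) and control 1 (0.589%) overlap in their intervals.

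The uroplakin levels themselves are given as a description, since they chose the cells. Upk1a stood at 14.4 in control 1, 20.6 and 17.5 in AKI 1 and AKI 2, and 10.5 and 20.8 in CKD 1 and CKD 2. Upk1b, the other tetraspanin, stood at 7.53, 12.8, 7.61, 5.46 and 8.14 in the same order. For Upk2 the levels were 5.40, 7.88, 6.37, 3.77 and 5.56. CKD 1 was lowest for all of these 3 genes. Upk3a went the other way, with 29.8 in control 1, 34.0 and 37.6 in AKI 1 and AKI 2, and 44.7 and 40.2 in CKD 1 and CKD 2, so that its CKD libraries lay above the others. In CKD 2, however, 348 of 932 Upk3a UMIs came from 1 cell, and without the highest cell of each library the levels were 27.6, 22.3, 37.3, 41.7 and 29.7, with CKD 2 below AKI 2. Upk3b, a relative outside the rule that is also made by mesothelium, ranged from 1.64 to 2.63, and of the other mesothelial genes Lrrn4 had 0 UMIs and Wt1 a single UMI. Msln, encoding mesothelin, stood at 0.546 in control 1, 0.621 and 0 in AKI 1 and AKI 2, and 1.86 and 0.172 in CKD 1 and CKD 2.

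The promoters of plaque genes, the umbrella cell keratin and the basal keratin are shown because these genes are known to mark different layers. In the cells here Krt20 and Krt5 did not exclude each other. For example, 1 CKD 2 cell had 7 Krt20 and 32 Krt5 UMIs. Each is 250 bases ending at the gene's start in RefSeq (GRCm38.p6), 5′ to 3′ on the gene's strand. Capitals mark matches, on either strand, to one of 4 short motifs. For GATA factors the motif searched was AGATAA. For Krüppel-like factors it was CCACCC, for forkhead FOXA factors TGTTTAC, and for the nuclear receptor half-site AGGTCA.
Upk1a, chr7:30612735-30612984, minus strand: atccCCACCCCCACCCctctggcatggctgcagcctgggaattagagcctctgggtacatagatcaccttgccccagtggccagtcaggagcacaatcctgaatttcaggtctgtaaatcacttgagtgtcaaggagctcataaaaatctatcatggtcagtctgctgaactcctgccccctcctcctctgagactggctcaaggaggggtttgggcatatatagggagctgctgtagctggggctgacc
Upk3a, chr15:85016891-85017140, plus strand: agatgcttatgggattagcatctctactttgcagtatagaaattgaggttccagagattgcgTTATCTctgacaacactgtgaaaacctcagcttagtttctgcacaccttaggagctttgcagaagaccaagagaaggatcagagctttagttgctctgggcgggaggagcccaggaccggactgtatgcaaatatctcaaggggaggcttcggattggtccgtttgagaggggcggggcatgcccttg
Krt20, chr11:99438154-99438403, minus strand: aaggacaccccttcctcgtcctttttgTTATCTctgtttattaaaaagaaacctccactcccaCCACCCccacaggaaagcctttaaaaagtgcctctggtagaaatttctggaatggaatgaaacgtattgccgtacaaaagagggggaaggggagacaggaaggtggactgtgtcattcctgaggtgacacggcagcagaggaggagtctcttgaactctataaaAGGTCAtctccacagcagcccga
Krt5, chr15:101712906-101713155, minus strand: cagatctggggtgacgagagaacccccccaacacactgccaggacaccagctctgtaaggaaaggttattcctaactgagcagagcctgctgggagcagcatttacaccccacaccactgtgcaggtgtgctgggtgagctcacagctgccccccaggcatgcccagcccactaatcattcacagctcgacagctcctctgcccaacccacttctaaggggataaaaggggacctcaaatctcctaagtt
The Upk1a window held a pair of adjacent Krüppel-like matches, the Upk3a window held 1 GATA match on the opposite strand, the Krt20 window held matches for GATA factors, Krüppel-like factors and nuclear receptors, and the Krt5 window held none of these letters. Of 32851 windows of this length, 9.99% held the GATA factor motif, 28.1% the Krüppel-like, 3.17% the forkhead and 14% the nuclear receptor motif. The matches describe these letters and are no evidence of binding.

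Keratins divided the members. Krt15, a keratin of basal and progenitor cells in stratified epithelia, had a level of 4.92 in control 1, 7.80 and 0.0884 in AKI 1 and AKI 2, and 12.4 and 3.88 in CKD 1 and CKD 2. It was concentrated in few cells: 55 of the 86 members had no Krt15 UMI, 3 had 1 UMI, and 28 had 2 or more, up to 151. Cells with at least 2 Krt15 UMIs, a threshold set after the values were seen, made up 11 of 37 members in control 1 (29.7%, exact 95% interval 15.9% to 47.0%) and 4 of 13 in AKI 1 (30.8%, 9.09% to 61.4%). AKI 2 had 0 of 7 (0% to 41.0% by the same interval; a floor of 3 counts gives a limit of 42.9%). CKD 1 had 10 of 19 (52.6%, 28.9% to 75.6%) and CKD 2 had 3 of 10 (30.0%, 6.67% to 65.2%). The intervals overlapped across all libraries. T cells were kept barcodes with 2 or more UMIs of Cd3d, Cd3e and Cd3g together. Among these cells, which should lack Krt15, the share was at most 0.0221% (median depth 3533 to 5864 UMIs), and no collecting duct cell passed.

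Krt15 was found largely in other cells than Krt20 and Upk1a. Krt20 was detected in 4 of the 28 Krt15 members and in 40 of the 58 others. Upk1a was at 0 in 12 of the 28 Krt15 members and in 6 of the 58 others. However, 8 of the 28 were CKD 1 cells of only 2806 to 4628 UMIs, where a count of 0 says less. Each of these 8 had 21 to 45 Upk3a UMIs. In control 1 the Upk1a level was 4.15 in Krt15 cells and 18.6 in the others, in AKI 1 it was 6.31 against 27.2, in CKD 1 0.64 against 17.8, and in CKD 2 14.0 against 25.2. The Krt15 cells were thus lower in Upk1a in each of the 4 libraries that had them, by the least in CKD 2. Upk3a summed to 13.8 in Krt15 cells against 36.4 in the others of control 1, and to 13.2 against 43.6 in AKI 1. In CKD 1 it was 33.7 against 52.9 and in CKD 2 29.6 against 47.1. Gstm1, a glutathione transferase, followed the same order, at 42.6 against 161 in control 1, 105 against 175 in AKI 1, 38.2 against 164 in CKD 1 and 158 against 229 in CKD 2. The basal genes Krt5 and Trp63 did not follow Krt15 in every library. Krt5 stood at 2.54 in Krt15 cells against 3.58 in the others of control 1, and at 5.83 against 2.39 in AKI 1. In CKD 1 it was 5.14 against 2.09 and in CKD 2 3.82 against 3.99. Trp63 stood at 0.519 against 0.686, 0.315 against 1.27, 1.16 against 0.569 and 1.75 against 1.07 in the same order. These values describe cells split by a gene of their own profile and were not tested.

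**Figure D2:**
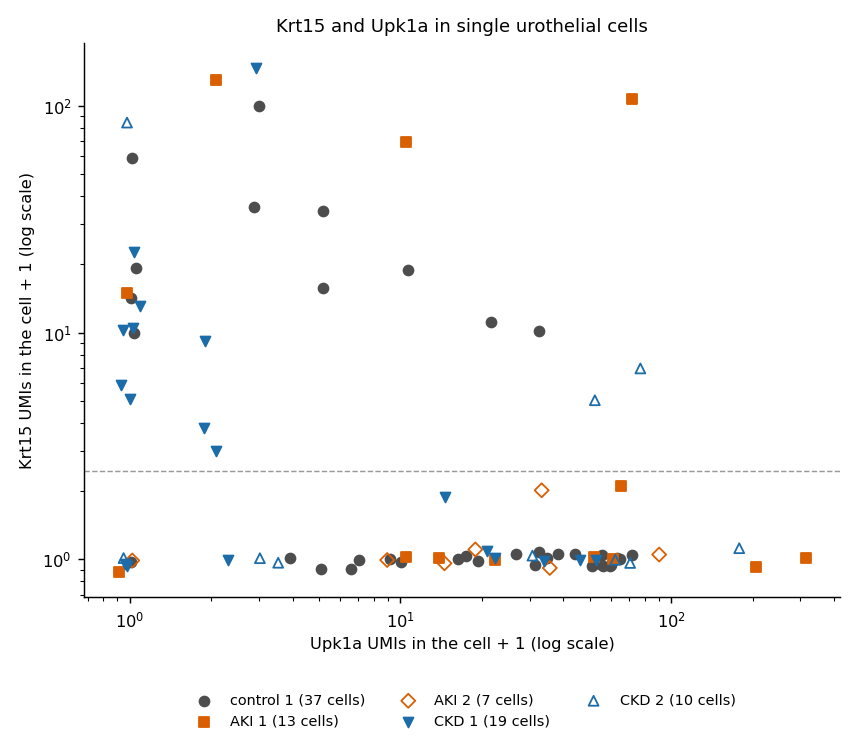
Krt15 UMIs plus 1 against Upk1a UMIs plus 1 in each of the 86 urothelial cells, both on log axes, with a small random shift so that points at equal counts stay visible. The dashed line marks the threshold of 2 Krt15 UMIs, which 28 cells pass; most of these sit to the left, at low Upk1a, and no AKI 2 cell (open diamonds) passes.

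Several further genes had higher levels in the Krt15 cells. Spp1, which encodes the secreted phosphoprotein osteopontin, stood at 110 in Krt15 cells against 21.3 in the others of control 1, at 16.8 against 2.39 in AKI 1, at 165 against 3.61 in CKD 1 and at 97.7 against 0.43 in CKD 2. In the Krt15 cells 1066 of 2118 Spp1 UMIs in control 1 and 173 of 213 in AKI 1 came from 1 cell each. So did 1036 of 1287 in CKD 1 and 891 of 896 in CKD 2, the other Krt15 cells of CKD 2 having 1 and 4 UMIs. AKI 2, which had no Krt15 cell, nevertheless had Spp1 at 19.1. Slc12a2, the basolateral sodium, potassium and chloride cotransporter, reached 7.11 in Krt15 cells of control 1 and stayed between 0 and 1.06 in the other cells. Msln ranged from 0.44 to 4.37 in Krt15 cells and was at most 0.04 in the others. Dcn, a matrix proteoglycan usual in fibroblasts, ranged from 0.99 to 5.53 in Krt15 cells, although Col1a1, Col1a2 and Col3a1 had 0 UMIs in all 86 members. A single Krt15 cell gave 13 of 19 Dcn UMIs in control 1, 12 of 13 in AKI 1, 42 of 43 in CKD 1 and 16 of 16 in CKD 2. In each library this was also the Krt15 cell with the most Spp1.

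Within CKD 1 the Krt15 cells were of different kinds. Of its 10 Krt15 cells, 8 were shallow, with 2806 to 4628 UMIs, and each had 21 to 45 Upk3a UMIs, at most 1 Upk1a UMI and 2 to 13 Krt15 UMIs. The other two, with 9274 and 40454 UMIs, had 2 to 3 Upk3a UMIs, at least 22 Krt15 UMIs and 149 or more Spp1 UMIs. In all, 11 CKD 1 members fell under 5000 UMIs, against 7 in the other 4 libraries together. Krt5, by contrast, varied little over the 5 libraries, at 3.28, 3.48, 3.18, 3.38 and 3.92, and was detected in 56 members.

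**Figure D3:**
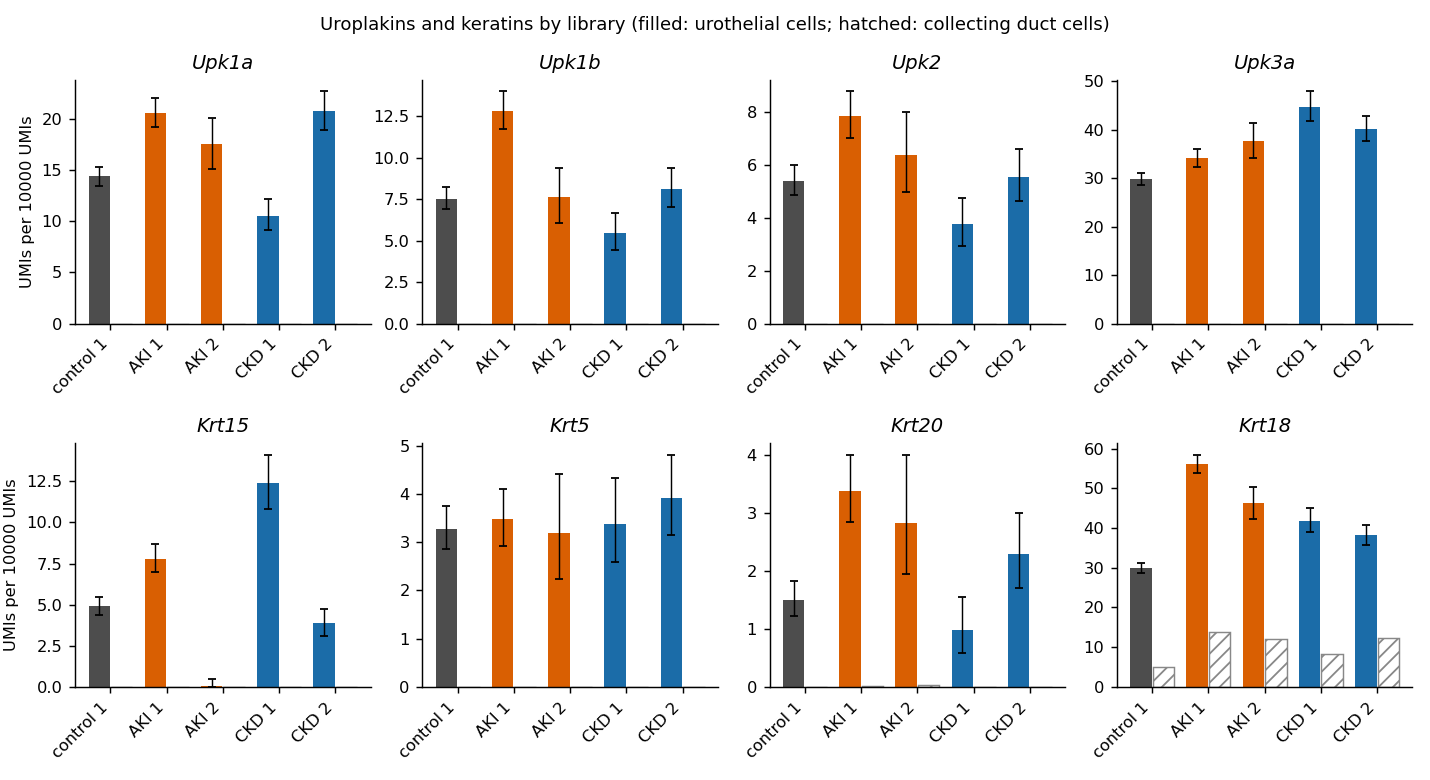
Levels (UMIs per 10000 UMIs) of the 4 rule uroplakins and of 4 keratins by library, as filled bars with 95% Poisson intervals in urothelial cells and hatched bars in collecting duct cells. Krt5 is level across libraries (3.18 to 3.92), Krt15 ranges from 0.0884 in AKI 2 to 12.4 in CKD 1, and Krt18 is the keratin here that the collecting duct cells also carry.

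To ask what else set these cells apart from a neighbouring epithelium, they were compared with 2139 collecting duct cells of the same libraries, chosen by principal cell genes (Aqp2, Avpr2, Hsd11b2, Fxyd4) and without a UMI of Upk1a, Upk1b, Upk2 or Upk3a; Upk3b, which was not used to leave cells out, stood there at 0 to 0.0389. That set also carried intercalated cell transcripts, at a summed level of 12.0 to 24.4. Libraries with at least 10 cells of each set entered (control 1, AKI 1, CKD 1 and CKD 2), with the library as a block. Of 7864 genes tested outside those that chose either set, 3039 differed (38.6%; edgeR's quasi-likelihood test, Benjamini-Hochberg adjusted p under 0.05), 1417 higher (18%) and 1622 lower (20.6%) in urothelial cells. The p-values here and below rest on few libraries. Residual degrees of freedom were 3 here, 1 for CKD against AKI and 2 for the test of both cell sets from AKI to CKD. The p-values therefore lean on the dispersion that edgeR shares across genes. Here, with the library as a block, the spread is that of differences within libraries. The labels do not say whether the libraries came from separate mice.

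The largest named rises included genes known from stratified and barrier epithelia. Ly6d, a surface antigen of such epithelia, had 31.9, 46.0, 55.1, 41.4 and 34.3 UMIs per 10000 in the urothelial cells of control 1, AKI 1, AKI 2, CKD 1 and CKD 2, and at most 0.0143 in collecting duct cells. Krt15 gave 955 UMIs in the 4 tested libraries against 1 in collecting duct cells, a ratio of 14969 (counting interval 2680 to 591839). Krt5 gave 509 against 3 UMIs (ratio 2659, 905 to 12938). Sprr2a3, a cornified envelope protein gene, was at least 3396-fold higher, with 650 UMIs against 0, but had no UMI in AKI 2. Trim29 was at least 737-fold higher, Aldh3b2, an aldehyde dehydrogenase, at least 1024-fold and Dnmt3l at least 899-fold, each against 0 UMIs. Sptssb, a subunit regulator of serine palmitoyltransferase, gave 1417 UMIs against 6, and Vsig2 gave 520 against 2. Fer1l4 was at least 580-fold higher.

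The largest named falls were all to 0 UMIs in the urothelial cells of these libraries. Slc4a1, the anion exchanger of acid-secreting intercalated cells, was at least 65.5-fold lower, with 3081 UMIs in the collecting duct cells. Mcoln3, a cation channel, was at least 56.3-fold lower and Oxgr1, the oxoglutarate receptor, at least 47.0-fold lower. Avpr1a, a vasopressin receptor, was at least 23.4-fold lower and Pde1c at least 17.5-fold lower.

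Keratins and basal layer genes were mostly higher, whereas junction genes were mixed. The list counts here and below stand beside shares of 18% higher and 20.6% lower among all 7864 genes tested. All 5 luminal keratins tested rose, with Krt19 at 22.2 to 31.7 against at most 0.995 in collecting duct cells (log2 difference 6.18, SE 0.56, adjusted p = 1.62e-06). Of 10 basal layer genes, 6 rose and 1, Itga6, fell. Among those that rose, Trp63 stood at 0.637 to 1.34 against at most 0.0169, and Lamb3, a chain of laminin 332, at 0.442 to 0.774 against at most 0.0164. Of 16 junction genes, 7 rose and 3 fell. Perp, a desmosomal protein gene, was the largest rise (log2 difference 3.19, SE 0.16), whereas Cldn3 (log2 −4.58, SE 0.45) and Cldn8 (log2 −1.59, SE 0.21), claudins of the tubule, fell, and Cldn4 stood at 3.96 to 8.23 against 2.00 to 7.30.

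Transcription factors known in the urothelium were largely higher, 11 of 17 up and 2 down, with a median log2 difference of 0.84 against −0.06 over all genes tested. Foxq1, a forkhead factor, stood at 14.3 in control 1, 18.4 and 23.3 in AKI 1 and AKI 2, and 22.7 and 20.9 in CKD 1 and CKD 2, and at no more than 0.883 in collecting duct cells. Pparg, a nuclear receptor of urothelial differentiation, stood at 0.437 to 1.24 against at most 0.00628 (log2 difference 8.33, SE 0.39). Foxa1, a forkhead factor, stood at 1.23 to 2.48 against at most 0.0166 (log2 8.03, SE 0.48). Grhl3, which is needed for umbrella cell maturation, stood at 0.218 to 0.796 against at most 0.00205. Klf5 rose as well (log2 2.69, SE 0.27), and Gata3, which the collecting duct also uses, rose by the small log2 difference of 0.62 (SE 0.18). Tfap2a and Hoxb9 fell.

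Of 13 growth factor and receptor genes, 6 rose and 2 fell, beside 18% higher and 20.6% lower of all genes tested. Shh, the hedgehog ligand with which urothelium signals to the stroma below it, stood at 0.729 in control 1, 0.795 and 1.59 in AKI 1 and AKI 2, and 0.601 and 0.819 in CKD 1 and CKD 2, against at most 0.0166 in collecting duct cells. Its receptor Ptch1 fell (log2 −2.00, SE 0.39). Areg, an epidermal growth factor receptor ligand, stood at 0.683, 1.66, 2.12, 1.58 and 3.79 against at most 0.0553. Each injured library thus lay above control 1 for Areg, but 48 of the 67 UMIs in AKI 1, 20 of the 24 in AKI 2 and 75 of the 88 in CKD 2 came from 1 cell each. Fgfr3, a receptor often mutated in bladder tumours, rose (log2 3.87, SE 0.35), and Met, the hepatocyte growth factor receptor, fell (log2 −1.69, SE 0.26).

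Transport genes went the other way, with 8 of 11 lower, 2 higher and a median log2 difference of −2.34. The epithelial sodium channel subunits Scnn1a (log2 −2.47, SE 0.27), Scnn1b (log2 −3.53, SE 0.21) and Scnn1g (log2 −2.34, SE 0.23) all fell. Slc14a1, a urea transporter (log2 4.89, SE 0.61), and Slc12a2 (log2 3.16, SE 0.26) rose. All 5 intercalated cell genes fell, and so did the thick limb genes Umod and Slc12a1. T cells, which should lack thick limb genes, had that list at 19.9 in control 1, 7.84 in CKD 1 and 1.30 to 4.40 elsewhere. In control 1 and CKD 1 it stood at 3.89 and 1.36 in urothelial cells and at 11.4 and 8.95 in collecting duct cells. The part of such stray UMIs in this fall was not tested.

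Of 14 genes of secreted and surface proteins, 10 were higher, with a median log2 difference of 4.01. The lists were chosen with earlier results of these data known, so this median does not rank gene groups. S100a6, a calcium-binding protein, stood at 189, 236, 174, 138 and 206, against at most 2.98 in collecting duct cells. Sprr1a, another cornified envelope gene, stood at 37.3, 62.6, 51.8, 39.6 and 45.4 against at most 0.669, and Fxyd3 at 12.4 to 13.6 against at most 0.176. Muc1 (log2 −5.07, SE 0.45) and Muc20 (log2 −3.91, SE 0.34) fell, Muc1 with levels of at most 0.0911 in urothelial cells.

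Most NRF2 and glutathione genes were higher in urothelial cells. Gstm1 stood at 126 in control 1, 153 and 201 in AKI 1 and AKI 2, and 111 and 201 in CKD 1 and CKD 2, against 0.944 to 1.52 in collecting duct cells (log2 difference 7.11, SE 0.31, adjusted p = 1.78e-09). Gsta4, a transferase for lipid aldehydes, stood at 33.1, 37.2, 42.5, 29.3 and 40.5 against at most 0.859 (log2 5.81, SE 0.23). Of the 10 NRF2 and glutathione genes tested, 6 rose and 1, Srxn1, fell, beside 18% higher and 20.6% lower of all genes tested. CKD 1 was lowest for Gstm1 and Gsta4, and it was also the library with the largest share of Krt15 cells, which had less Gstm1; the part of that share in the levels was not tested.

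Genes that handle AAI were sparse. Nqo1, the main enzyme of its nitroreduction, stood at 0.395 in control 1, 0.149 and 0 in AKI 1 and AKI 2, and 0.164 and 0.129 in CKD 1 and CKD 2, and was higher than in collecting duct cells (log2 1.76, SE 0.41, adjusted p = 0.00369). Por, cytochrome P450 reductase, stood at 0.713, 1.54, 1.77, 0.601 and 1.08 (log2 1.45, SE 0.24), so that both AKI libraries lay above the other three. Cyb5r3, a cytochrome b5 reductase, was the third of the 3 genes tested and also rose (log2 0.95, SE 0.17). Cyp1a1, Cyp1b1 and Nat1 had no UMI in any member. The organic anion transporters Slc22a6 and Slc22a8, through which proximal tubule cells take up AAI, were at most 0.0884 and 0.121, beside a summed proximal tubule list of 0.215 to 2.37 in the same cells.

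Genes of stress and DNA damage were set beside those of the collecting duct cells. The summed level of 18 p53 target genes, which respond to DNA damage, was 6.65 in control 1, 9.02 and 7.16 in AKI 1 and AKI 2, and 7.75 and 7.28 in CKD 1 and CKD 2. In collecting duct cells it was 10.2 in control 1 and 16.0 to 21.5 in the injured libraries. Cdkn1a, the p53-induced cell cycle inhibitor, stood in urothelial cells at 0.577 in control 1 and at 1.71, 1.06, 1.04 and 1.03 in AKI 1, AKI 2, CKD 1 and CKD 2. In collecting duct cells it stood at 0.209 in control 1 and at 1.31 to 1.83 after AAI. Gdf15, a stress cytokine and p53 target, was at 0.164 to 0.410 in urothelial cells and at 5.83 to 13.4 in collecting duct cells. With a single control library, differences from control have no replicate check.

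Injury, interferon and inflammation genes were read in the same way. The epithelial injury list summed to 67.6 in control 1, 33.9 and 39.4 in AKI 1 and AKI 2, and 87.4 and 47.4 in CKD 1 and CKD 2 of the urothelial cells, and to 35.0 in control 1 and 168 to 233 in the injured libraries of the collecting duct cells. Spp1 alone gave 47.2, 6.93, 19.1, 72.3 and 38.9 of the urothelial sums, and in both CKD libraries most of it came from 1 cell (1036 of 1325 and 891 of 902 UMIs). Havcr1, the tubular injury marker KIM-1, had no UMI in any member. The interferon and MHC class I list was 38.5 in control 1 and 24.8 to 39.1 after AAI in urothelial cells, whereas collecting duct cells went from 10.8 to between 28.0 and 41.5. For the inflammation list the urothelial sums were 4.86, 6.06, 5.40, 9.50 and 7.54 and those of the collecting duct cells 4.25, 15.2, 14.4, 19.9 and 12.3. No test separates control from AAI here, since control has 1 library.

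**Figure D4:**
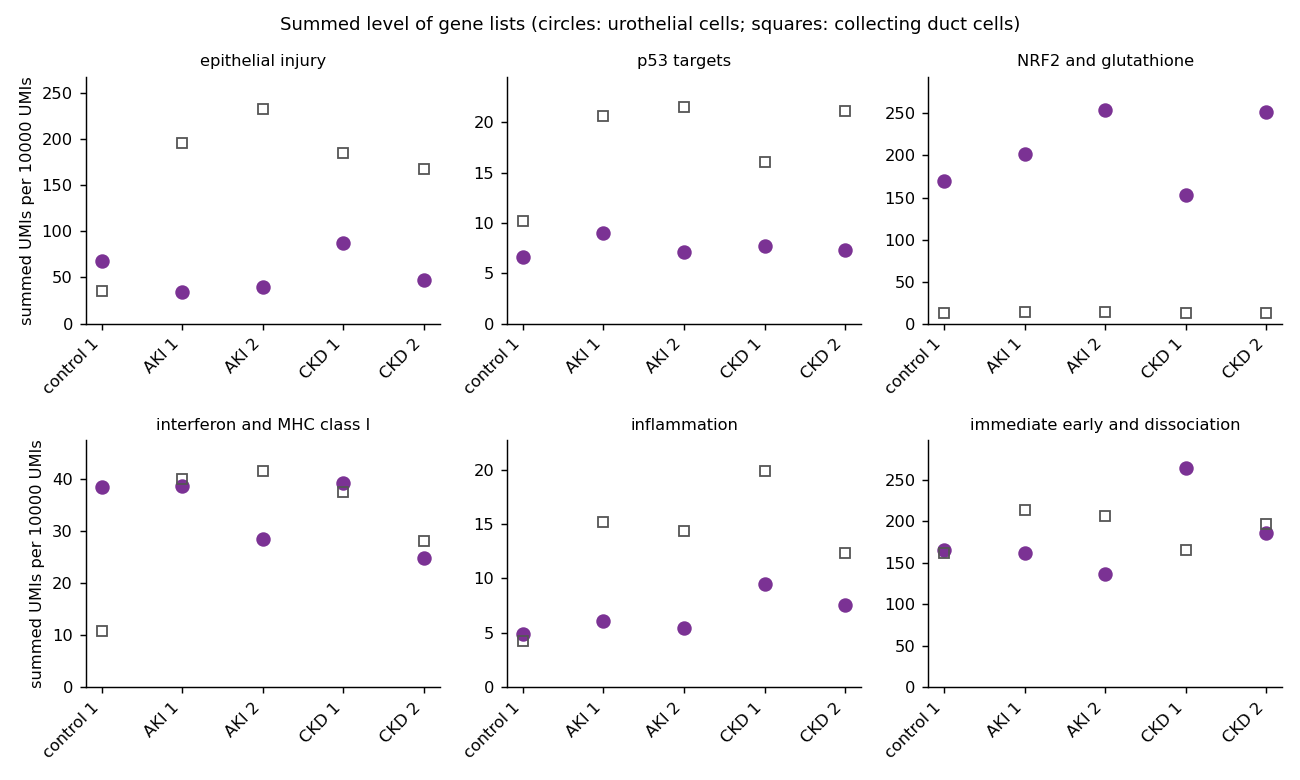
Summed level (UMIs per 10000 UMIs) of 6 gene lists by library in urothelial cells (circles) and collecting duct cells (squares). The p53 list stays at 6.65 to 9.02 in urothelial cells and goes from 10.2 in control 1 to 16.0 to 21.5 in the injured collecting duct cells, and the NRF2 and glutathione list is 154 to 254 against 12.7 to 14.3.

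Cell cycle transcripts were scarce. Mki67, the proliferation marker, had 1 UMI in each of 2 CKD 1 members and none elsewhere. Top2a had a UMI in AKI 1 alone, and Ccnb1 and Ccnb2 had none in any member. Stmn1, a microtubule regulator that is not restricted to cycling cells, stood at 2.14, 2.19, 3.71, 2.51 and 2.11. Ccnd1, cyclin D1, was lower than in collecting duct cells (log2 −1.86, SE 0.27) and stood at 1.37 in control 1, 0.248 and 0.531 in AKI 1 and AKI 2, and 0.874 and 0.775 in CKD 1 and CKD 2.

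The phase after AAI withdrawal was then compared with the acute phase. Only libraries with at least 10 members entered, so AKI 1 was set against CKD 1 and CKD 2, with the spread of the lone AKI library assumed to be that of the CKD libraries. Of 3757 genes tested, 30 passed (0.799%), 12 higher in CKD (0.319%) and 18 lower (0.479%), and 181 had an unadjusted p under 0.05. When AKI 2, with its 7 cells, was included, 1 of 2801 genes passed, Klf2. For 24 of the genes called without AKI 2, 1 cell carried over 50% of the UMIs in AKI 1, CKD 1 or CKD 2. The share of all tested genes with such a cell was not computed, so this count does not set the called genes apart. With each gene's highest cell left out of every library, 10 genes passed, 7 of them among the 30, and none passed over all 4 libraries (79 of 1971 at an unadjusted p under 0.05). Of the 30 genes, 17 (56.7%) did not overlap between the groups when AKI 2 was added, beside 31.5% of all 3757 genes. All 30 were already apart over AKI 1, CKD 1 and CKD 2, which called them, and the 3757 were under no such condition. The shares therefore cannot tell whether AKI 2 went with AKI 1.

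Spp1 had the largest rise (log2 3.10, SE 0.45, adjusted p = 2.75e-08 in edgeR's quasi-likelihood test). Its level was 47.2 in control 1, 6.93 and 19.1 in AKI 1 and AKI 2, and 72.3 and 38.9 in CKD 1 and CKD 2. However, 1036 of 1325 UMIs in CKD 1, 891 of 902 in CKD 2, 176 of 216 in AKI 2 and 173 of 279 in AKI 1 came from 1 cell each, and without these cells the levels were 20.2, 0.54, 3.84 and 2.90. The AKI and CKD libraries then overlapped. Spp1 was also called without the highest cells in AKI 1, CKD 1 and CKD 2 (log2 1.77, adjusted p = 0.00213), but not when AKI 2 was included with all cells kept (log2 2.12, adjusted p = 0.345). T cells had Spp1 at 5.56 in control 1, 26.1 and 24.8 in AKI 1 and AKI 2, and 28.3 and 6.58 in CKD 1 and CKD 2. Doublets were kept, and the part of stray UMIs in the Spp1 levels was not tested.

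Clu, encoding the secreted chaperone clusterin, fell (log2 −2.48, SE 0.37, adjusted p = 7.01e-08). Its level was 13.3 in control 1, 15.3 and 12.1 in AKI 1 and AKI 2, and 3.66 and 1.51 in CKD 1 and CKD 2, so the CKD libraries lay below all others. Without the highest cell of each library the levels were 6.57, 12.9, 3.26, 3.43 and 1.27, so AKI 2 then lay among the CKD libraries. Clu was called without these cells over AKI 1, CKD 1 and CKD 2 (log2 −2.39, adjusted p = 1.15e-08) and not with AKI 2 included and all cells kept (log2 −2.40, adjusted p = 0.0705). In collecting duct cells it stood at 6.63 in control 1 and at 40.6 to 76.1 after AAI.

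Klf2, a Krüppel-like factor known for quiescence in several cell types, rose (log2 2.91, SE 0.46, adjusted p = 1.44e-07), and it was the gene that passed with AKI 2 included (log2 3.12, adjusted p = 0.0106). Levels were 2.20 in control 1, 0.596 and 0.265 in AKI 1 and AKI 2, and 3.55 and 4.70 in CKD 1 and CKD 2. Of the 109 UMIs in CKD 2, 98 came from 1 cell, and of the 65 in CKD 1, 45 did. Without the highest cells the levels were 1.25, 0.27, 0.12, 1.40 and 0.54, which still did not overlap between AKI and CKD, but the test did not pass (log2 1.79, adjusted p = 0.398).

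Klf4, a factor of epithelial differentiation, was the 1 of 16 urothelial transcription factors to rise (log2 1.78, adjusted p = 0.00922). It stood at 2.19 in control 1, 0.646 and 0.973 in AKI 1 and AKI 2, and 2.02 and 2.07 in CKD 1 and CKD 2, so both AKI libraries lay under control 1 and both CKD libraries close to it. Without the highest cells the levels were 1.67, 0.44, 0.66, 0.84 and 1.38. Both CKD libraries still lay above both AKI libraries. With AKI 2 included, however, Klf4 was not called, either with all cells kept or without the highest cells. In collecting duct cells the order was the reverse, with 6.04 and 5.86 in AKI against 3.28 and 3.75 in CKD. Ier2, an immediate early gene, rose as well (log2 1.49, adjusted p = 0.036), 1 of 16 such genes, whose median log2 change was 0.60.

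Psca, a surface antigen of urothelial and prostate epithelium, fell (log2 −1.91, adjusted p = 5.59e-05), but its 47.3 in AKI 1 rested on 1 cell with 1240 of the 1904 UMIs. The other libraries were at 18.6 in control 1, 9.46 in AKI 2, 7.26 in CKD 1 and 15.5 in CKD 2, so AKI 2 lay between the CKD libraries. Nupr1, a stress response gene called among the 30 (log2 −1.88, adjusted p = 0.00014) and named here after its values were seen, had 230 of 323 UMIs in 1 AKI 1 cell and 84 of 85 in 1 CKD 2 cell. Its level was 10.3 in control 1, 8.03 and 3.45 in AKI 1 and AKI 2, and 0.109 and 3.66 in CKD 1 and CKD 2, so CKD 2 lay above AKI 2. Without the highest cells it was 7.34 in control 1, 2.52 and 0.38 in AKI 1 and AKI 2, and 0.05 and 0.04 in CKD 1 and CKD 2. Hmox1, heme oxygenase, fell (log2 −1.63, adjusted p = 0.0135) from 2.16 in AKI 1, with 59 of 87 UMIs in 1 cell, while AKI 2 was at 0.531, CKD 1 at 1.20 and CKD 2 at 0.172.

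**Figure D5:**
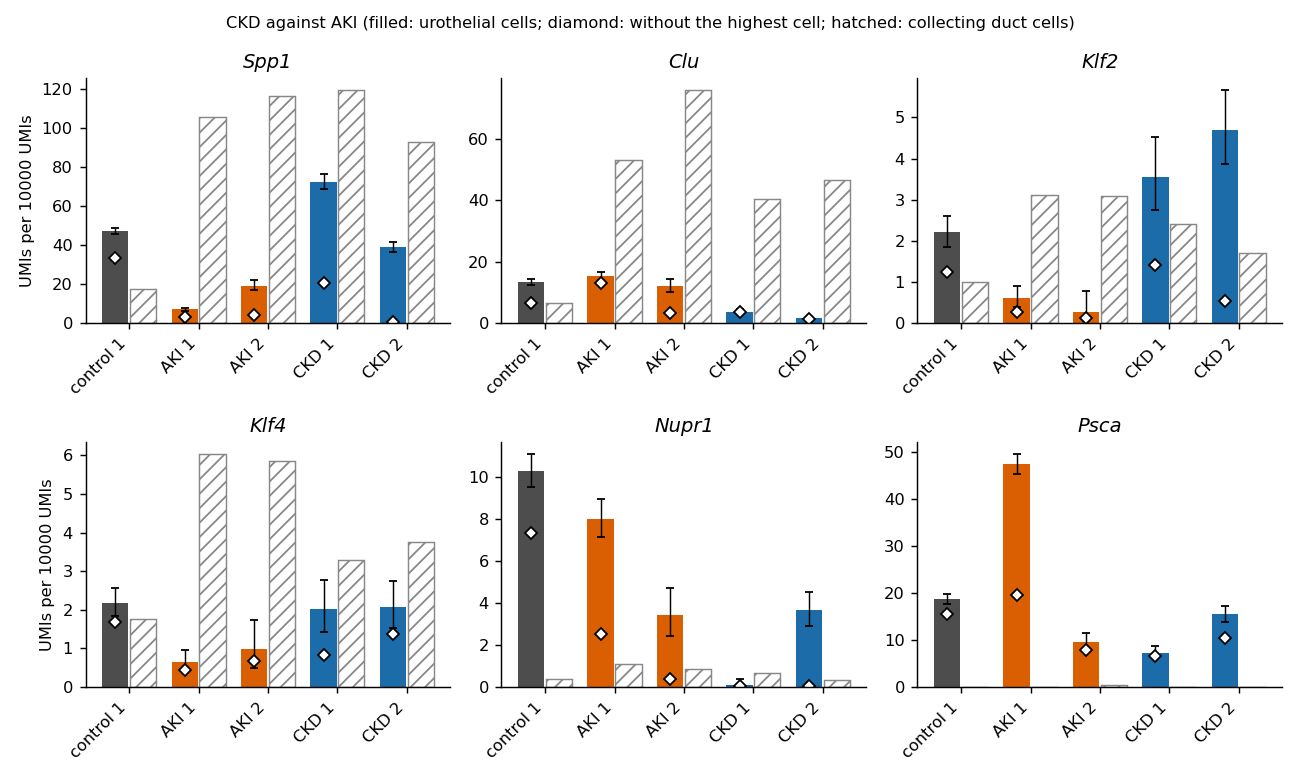
Levels (UMIs per 10000 UMIs) of 6 genes by library in urothelial cells (filled bars, 95% Poisson intervals) and collecting duct cells (hatched bars), with diamonds for the urothelial level once the highest cell of that library is left out. The Spp1 bar of CKD 2 drops from 38.9 to 0.54 and that of CKD 1 from 72.3 to 20.2, whereas the Klf4 diamonds of both CKD libraries stay above those of both AKI libraries.

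Several of the remaining named genes had most of their UMIs in 1 cell. Cryab, a small heat shock protein gene (log2 2.86, adjusted p = 0.00011), had 37 of its 42 CKD 1 UMIs in 1 cell, and Dcn (log2 2.27, adjusted p = 0.000698) had 42 of 43 in 1 Krt15 cell there. Bex1 rose (log2 2.52, adjusted p = 0.00169) from 0.20 in AKI 1 to 1.31 in CKD 1 and 0.86 in CKD 2, but AKI 2 stood at 0.88. Lcn2, the injury marker lipocalin 2, fell (log2 −2.75, adjusted p = 2.29e-05), with 63 of the 66 AKI 1 UMIs in 1 cell and 2 UMIs in all of AKI 2. Pigr, the polymeric immunoglobulin receptor, had 43 of 45 UMIs in 1 AKI 1 cell and 34 of 34 in 1 AKI 2 cell. Elovl4, a fatty acid elongase (log2 −2.52, adjusted p = 0.0396), stood at 0.92 and 0.27 in AKI 1 and AKI 2, and 0.05 and 0.22 in CKD 1 and CKD 2, and Fam25c (log2 −2.45) had 383 of 483 AKI 1 UMIs in 1 cell.

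Few list members were called between AKI and CKD, as were few of all genes (0.799%), so that lists this short show nothing particular by holding none. None of 5 luminal keratins passed (median log2 −0.21), none of 8 basal genes (0.14), none of 12 junction genes (−0.03) and none of 8 p53 targets (−0.22), beside a median of 0.03 over all genes tested. The same was true of 10 growth factor and receptor genes, 9 interferon and MHC class I genes (median log2 0.72), 5 inflammation genes, 3 MHC class II genes and 3 cell cycle genes. Of 8 injury genes 1 rose (Spp1) and 2 fell (Lcn2, Clu). These counts set no bound on the changes of genes that did not pass.

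Whether urothelial cells changed from AKI to CKD otherwise than collecting duct cells was tested as an interaction over all 4 injured libraries. Of 8451 genes, 31 passed (0.367%), 19 with the change higher in urothelial cells (0.225%) and 12 with it lower (0.142%). Leaving out the highest cell of each gene, library and set left 10, of which 8 were among the 31. Klf2 was the clearest (log2 3.69, SE 0.42, adjusted p = 2e-14, and log2 2.53, adjusted p = 0.00464, without the highest cells). In members with under 3 UMIs of other lineages Klf2 did not pass (log2 3.46, adjusted p = 0.749). Its level in collecting duct cells went from 3.12 and 3.10 in AKI to 2.41 and 1.71 in CKD, opposite to the urothelial cells. Klf4 also passed (log2 2.21, adjusted p = 0.000236), as did Spp1 (log2 2.27, adjusted p = 0.00576) and Clu (log2 −1.98, adjusted p = 0.0151). Psca passed with its change higher in urothelial cells, although it was called as a fall within urothelial cells. Fxyd3 passed (log2 1.85, adjusted p = 0.0291) with urothelial levels of 13.1, 12.5, 13.0 and 13.6 in the 4 injured libraries, the collecting duct cells going from 0.166 and 0.176 to 0.045 and 0.0502.

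For 3 further genes the urothelial levels varied little between AKI and CKD beside those of the collecting duct cells. S100a4 (log2 −3.72, adjusted p = 8.67e-07) stood at 0.388 to 0.983 in urothelial cells, and in collecting duct cells at 3.14 in CKD 1 against at most 0.110 elsewhere; without CKD 1 it did not pass (log2 −0.88, adjusted p = 1). Stmn1 (log2 −2.83, adjusted p = 5.5e-10) was 2.11 to 3.71 in urothelial cells and went from 0.126 and 0.276 in AKI to 0.938 and 1.20 in CKD in collecting duct cells, and it passed without CKD 1 as well (log2 −3.02, adjusted p = 2.7e-08). Fabp5, a fatty acid binding protein (log2 −2.45, adjusted p = 9.13e-06), stood at 3.55 to 5.39 in urothelial cells and at 0.590 in CKD 1 collecting duct cells against at most 0.0806 elsewhere, and did not pass without CKD 1 (log2 −0.14, adjusted p = 1). The CKD 1 collecting duct cells were shallow, with a median of 3054 UMIs, and carried more immune transcripts, with the T cell list at 3.99 and the MHC class II list at 18.7, against 0.272 to 0.567 and 1.59 to 6.65 in the other libraries. The part of these transcripts in the interactions was not tested.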

How the data were processed

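Kidney cells of 5 mouse libraries were profiled with the 10x Genomics 3′ chemistry. The authors deposited raw UMI count matrices of 32285 genes; the submitters' processing notes name Cell Ranger 7.2.0, STAR and GRCm39, whereas the file headers of the AKI and CKD matrices name another Cell Ranger version and the control gene list names an earlier build. The study's removal of background RNA and doublets is not in these values. The members and gene lists were chosen with earlier results of these data known.

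Counts were summed per library over each cell set and tested with edgeR 4.0.16 (TMM, filterByExpr, quasi-likelihood F-test, Benjamini-Hochberg, threshold 0.05), with DESeq2 1.42.0 as an alternative (R 4.3.3), after a trial on simulated data. Kept barcodes held 64825786 to 105551199 UMIs per library. Genes that chose a set were left out of its calls. Folds against 0 UMIs used a floor of 3 UMIs over the group; other ratios carry exact Poisson bounds.

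Named genes were the markers, the 5 largest called rises and falls of each AKI to CKD test whose libraries did not overlap (10 rises for urothelial against collecting duct cells), and, of each list, the members with the highest levels or called. Genes named Rik or Gm were counted only. Promoters came from RefSeq (GRCm38.p6).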

Additional observations from a re-analysis of the deposited data

Results flagged for a closer look

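Each of these genes was singled out because its change from AKI to CKD differed between urothelial and collecting duct cells in a test of the interaction itself (edgeR's quasi-likelihood test, Benjamini-Hochberg). The log2 interaction was 5.82 for Slco2a1, a prostaglandin transporter, 3.69 for Klf2, 3.46 for Cryab, 3.06 for Rasl11a and 2.52 for Npnt, a basement membrane protein. It was −4.52 for Mgst2, −3.73 for Fam25c, −3.72 for S100a4, −2.83 for Stmn1 and −2.45 for Fabp5.

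In urothelial cells Slco2a1 rested on 1 UMI and 0 in AKI 1 and AKI 2, and 9 and 10 in CKD 1 and CKD 2, of which 7 and 9 came from 1 cell each. Rasl11a rested on 4, 0, 6 and 13 UMIs, and Npnt on 10, 0, 23 and 13, with 21 of the 23 and all 13 in 1 cell. Mgst2 went in urothelial cells from 0.87 and 1.95 UMIs per 10000 to 0.33 and 0.43, while its 0.0471 in CKD 1 collecting duct cells stood against at most 0.00474 in the other libraries.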

How the results depend on the processing

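The comparison of urothelial with collecting duct cells kept its size under every alternative run (2465 to 3937 called genes), and the 15 genes named from it passed in all 178 refits. The other comparisons did not. For CKD against AKI, 30 calls became 3 with DESeq2, 1 with AKI 2 included, 10 without each gene's highest cell and 0 without these cells over all 4 libraries; leaving out a library with AKI 2 included gave 13 to 47 (13 without AKI 1, 16 without CKD 1, 47 without CKD 2). For the interaction, 31 calls became 2 with DESeq2, 3 in members with under 3 UMIs of other lineages, 15 in members with uroplakins above every other list, 10 without highest cells and 11 to 40 on leaving out a library (12 without AKI 2, 11 without CKD 1). RLE scaling, no filter on low counts and a uroplakin sum of 5 stayed within 1.5 times of both. The CKD minus AKI difference in share, 0.0115 percentage points, was 0.107 of barcodes without Ptprc and −0.0200 after thinning to 2000 UMIs, and −0.0143 to 0.0373 on leaving out a library. The causes were not tested.

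Of the named genes, Fam25c reversed in CKD against AKI without AKI 1 (log2 0.48). In the interaction, Cryab (−0.66) and Npnt (−0.43) reversed in members above every other list, Npnt without highest cells (−0.65) and Mgst2 without CKD 1 (1.09, in a range of −5.41 to 1.09 over the libraries left out). In all, 34 of 93 refits of genes named for CKD against AKI and 43 of 117 for the interaction kept their direction but lost the call. The replicate numbers are names only; with them as a replicate block over all 4 libraries, 38 genes were called for CKD against AKI. CKD against AKI was not refitted at 15% mitochondrial UMIs, under 3 UMIs of other lineages or in members above every other list, and urothelial against collecting duct cells was not at under 3 UMIs of other lineages, since too few libraries kept 10 cells. With 7 to 37 cells per library, a single cell can set the level of a gene. Alternatives with AKI 2, highest cells and members above other lists were chosen after seeing the data.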
